A study of Mus musculus with 12 samples.

Results

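Loss of ClpP at 6 months of age was examined by comparing cumulus cells of 3 ClpP-/- female mice (KO) with those of 3 wild-type females (WT) of the same age. These 6 libraries were taken from a series of 12 by their labels for age and genotype, and the other 6 came from 3-month mice of the same genotypes. All mice were of the C57BL/6J strain and were primed with PMSG, a gonadotropin from pregnant mares that stimulates follicle growth, at 5 IU. The animals therefore shared the hormone treatment and differed by label in ClpP alone. Cells were collected 44 h after the injection by the treatment protocol and 48 h after it by the series design. A library held the RNA of 100 cumulus cells taken from 1 mouse, so that the p-values measure the spread between mice, cell samples and amplifications together. The labels give a passage of P1 for cells taken directly from ovaries, and they give no further detail of the deletion, so which Clpp exons the KO mice lack was not known here. Of 23997 rows in the table, 10338 had at least 1 FPKM (fragment counts scaled by transcript length and library size) in at least 3 of the 6 libraries and were tested. The title of the series places the comparison in the study of reproductive aging.

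ClpP is the proteolytic core of ClpXP, a protease of the mitochondrial matrix. Its partner ClpX is an ATPase that unfolds proteins and feeds them into the ClpP chamber, where they are degraded, and loss of matrix protein quality control is known to induce mitochondrial chaperones and stress-response genes in several systems. Cumulus cells belong to the granulosa lineage and enclose the oocyte. They supply it with pyruvate, the product of their glycolysis, and with cholesterol made by their own synthesis pathway, both of which the oocyte makes poorly, and they expand into a matrix-rich mass before ovulation.

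Library 3 of each genotype stood apart from the other libraries in luteal, theca and stromal, and blood and leukocyte markers. Summed over 10 luteal markers, which include the steroidogenic enzyme Cyp11a1, the level was 960, 382 and 4800 FPKM in WT libraries 1, 2 and 3 and 304, 1421 and 15960 FPKM in KO libraries 1, 2 and 3. All 10 luteal markers, 14 of 15 theca and stromal markers and 17 of 18 blood and leukocyte markers had their highest value in a library numbered 3. The sum of theca and stromal markers was 15.6 to 171 FPKM in WT and 11 FPKM, 41.3 FPKM and 1805 FPKM in KO libraries 1, 2 and 3. Cyp17a1, the androgen-forming enzyme of theca cells, stood at 1062 FPKM in KO library 3 and at 0.634 to 14.7 FPKM in the other 5. The blood and leukocyte sum was 1795 FPKM in WT library 3 and 1612 FPKM in KO library 3, against 49.2 to 125 FPKM in the other 4. Oocyte markers summed to 374 FPKM in KO library 3 and to at most 22 FPKM in the other 5 libraries. H1foo, an oocyte linker histone, accounted for 124 FPKM of that sum. None of the lists had a marker at 0 in all 6 libraries. The granulosa and cumulus markers summed to 7024 to 9209 FPKM in WT and 5207 to 11000 FPKM in KO with 16 of 16 markers detected in either genotype, and Inha, which encodes the inhibin alpha subunit, was present at 2419 to 5653 FPKM. Endothelial markers summed to 7.98 to 58.7 FPKM over the 6 libraries. Surface epithelium markers summed to 120, 23.4 and 82.5 FPKM in WT libraries 1, 2 and 3 and to 24.45, 20.9 and 113 FPKM in KO libraries 1, 2 and 3. WT library 1 was the highest, so that leaving out the libraries numbered 3 does not remove this signal. A precursor microRNA entry, Mir3084, held 37.2% of the FPKM sum of KO library 3. Depth relative to the deepest library, read from the spacing of the lowest FPKM values, was 0.992, 1 and 0.68 in WT and 0.924, 0.914 and 0.718 in KO. By this estimate both libraries numbered 3 were also the shallowest. In such bulk samples fewer cells of a type and less RNA per cell cannot be told apart.

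**Figure D1:**
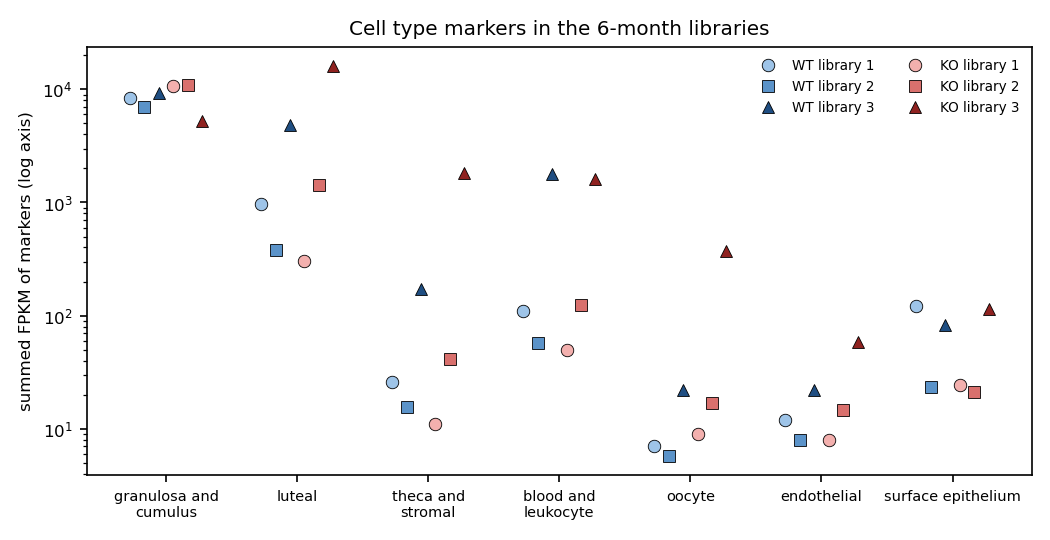
Summed FPKM of the markers of 7 cell types (log axis) in each of the 6 libraries, with circles, squares and triangles for libraries 1, 2 and 3, blue for WT and red for KO. The triangles stand highest for luteal, theca, blood and oocyte markers, while the granulosa and cumulus sum lies between 5207 and 11000 FPKM in all 6.

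At 6 months 3 entries passed the adjusted threshold of 0.05, which is 0.029% of the 10338 tested, and Clpp was the only protein-coding gene among them. In KO 1 of them was higher (0.00967%) and 2 were lower (0.0193%). Clpp (chromosome 17, 56990305 to 56996188, plus strand, GRCm38) stood at 129, 124 and 114 FPKM in the 3 WT libraries and at 1.64, 0.768 and 6.32 FPKM in the 3 KO libraries. The WT values lay within a narrow band and no KO value came near it, with KO library 3 the highest of the KO group. The KO mean of 2.91 ± 2.98 FPKM (SD, n = 3) was 2.38% of the WT mean of 122 ± 7.59 FPKM (SD, n = 3). On the log2(FPKM + 1) scale Clpp fell by 5.25 (SE 0.54, adjusted p = 0.00232, limma over 12 libraries with 4 group means). An exact 2-sided permutation test over the 6 libraries gave p = 0.1, the smallest that 3 against 3 allow. Fitted on the 6 libraries alone, Clpp had the same difference but missed the threshold (adjusted p = 0.0547, limma), and over the 16 alternatives its adjusted p ran from 0.000258 to 0.0547.

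The other 2 entries were the small nucleolar RNAs Snora65 and Snora15. Both belong to the H/ACA class, which guides the conversion of uridine to pseudouridine in ribosomal RNA and is processed from introns of host genes. Their sequences are shown because their short length sets what their FPKM values can mean, with the ACA box near the 3′ end, the element that names the class, in capitals. Snora65 is annotated at chr2:32963291-32963420 and Snora15 at chr5:129794546-129794676, both on the plus strand of GRCm38 in GENCODE M21.
Snora65: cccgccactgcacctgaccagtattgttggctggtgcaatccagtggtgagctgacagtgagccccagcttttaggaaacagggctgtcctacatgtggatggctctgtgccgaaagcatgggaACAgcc
Snora15: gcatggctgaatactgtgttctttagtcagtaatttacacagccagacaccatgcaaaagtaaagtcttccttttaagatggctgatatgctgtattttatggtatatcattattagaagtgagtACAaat

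Snora65 had 26.2, 23.2 and 50.5 FPKM in the WT libraries and a listed value of 0 in every KO library, and it fell by 5.02 (SE 0.42, adjusted p = 0.000522, limma). Snora15 went the other way, with a listed value of 0 in every WT library against 27.1, 28.4 and 56.6 FPKM in the KO libraries, a rise of 5.18 (SE 0.70, adjusted p = 0.0282, limma). Both log2 values depend on the pseudocount, since one group is at 0. Each entry reached 1 FPKM in 3 libraries only through the group where it was present, so that the filter on low values had already required a difference. The nonzero values of Snora65 and Snora15, with those of 2 other entries of the same RefSeq lengths (Snora75 with 116 bases, Snora34 with 118), were whole multiples, within 2%, of a step of 23.2 to 28.4 FPKM, taken as the lowest such value in each library. Where a library held a single entry of a length, as in WT library 2, the multiple is 1 by construction. In these steps Snora65 held 1, 1 and 2 in WT, and Snora15 held 1, 1 and 2 in KO. The step did not follow the estimated depth. It was 25.2 FPKM in WT library 3 against 26.2 FPKM in WT library 1 for 118 bases, and 28.3 FPKM in KO library 3 against 28.4 FPKM in KO library 2 for 116 bases. Snora75, which did not pass, held 2, 2 and 1 steps in KO and 1 step in WT library 2. Each call thus rests on values of 1 or 2 steps per library. The call of Snora15 was lost with a pseudocount of 0.1 (adjusted p = 0.243), with no filter on low values (0.172), with the replicate block (0.0835), with each of the 6 libraries left out in turn (0.0772 to 0.235) and without both libraries numbered 3 (0.917), all in limma, while Snora65 passed in every alternative run.

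Neither of the genes that contain these entries passed the test. Rpl12, a ribosomal protein gene that holds Snora65 on the same strand, stood at 498, 487 and 635 FPKM in WT and 491, 463 and 638 FPKM in KO, a log2 difference of -0.03 (SE 0.27). Cct6a, a subunit of the cytosolic chaperonin that folds actin and tubulin, holds Snora15 and stood at 331, 269 and 300 FPKM in WT and 284, 304 and 152 FPKM in KO (log2 difference -0.34, SE 0.30). Both snoRNA entries overlap an annotated exon of their host on the same strand, so that fragments of host and snoRNA cannot be told apart by position alone. Of 110 small nucleolar RNA entries in the table, 15 passed the filter on low values.

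**Figure D2:**
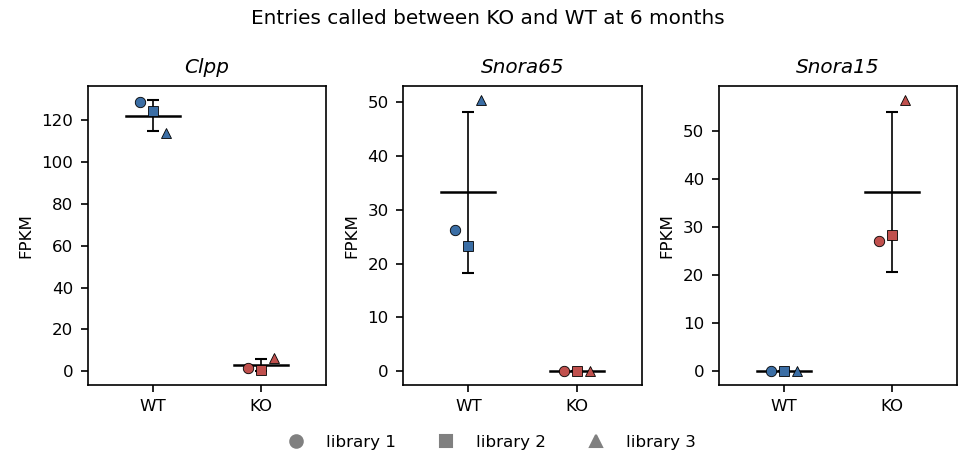
FPKM of the 3 entries with an adjusted p under 0.05 in the 6 libraries, with the group mean (bar) and SD (whiskers), n = 3, and circles, squares and triangles for libraries 1, 2 and 3. Clpp lies between 114 and 129 FPKM in WT and at 6.32 FPKM or less in KO, and each snoRNA is at 0 throughout one genotype.

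Beyond these 3 the smallest adjusted p was 0.9998. Unadjusted p-values under 0.05 were reached by 133 genes (1.29%), of which 86 were higher in KO (0.832%) and 47 lower (0.455%). The KO and WT values did not overlap in 717 genes (6.94%), 406 with KO higher (3.93%) and 311 with KO lower (3.01%). Differences below 0 made up 49.4% of all genes tested and the median difference was 0.0048. These shares are the background for the counts of gene groups that follow, and none of the genes described from here on passed the adjusted test.

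Among the genes lower in KO, Klf4 (chromosome 4, 55527143 to 55532466), a zinc-finger transcription factor induced early by growth signals, had the smallest unadjusted p after Snora65 and Clpp (0.0019, limma) where values did not overlap and a group mean reached 5 FPKM. Timp4, given below, had a larger difference relative to its SE but did not reach that mean. Klf4 stood at 21.5, 18.4 and 42.9 FPKM in WT and 4.02, 6 and 5.51 FPKM in KO, a log2 difference of -2.13 (SE 0.54). Every WT library was far above every KO library. Its relative Klf6 (chromosome 13, 5861482 to 5870394) stood at 94, 87.9 and 80 FPKM in WT and 39, 38.7 and 24.3 FPKM in KO (log2 difference -1.36, SE 0.44), with all 3 KO libraries well below the WT range. Kcnk1 (chromosome 8, 125995170 to 126030685), which encodes a potassium channel, stood at 10.8, 7.14 and 5.5 FPKM in WT and 1.5, 3.51 and 2.67 FPKM in KO (log2 difference -1.31, SE 0.40). Apoa1, the main apolipoprotein of high-density lipoprotein, stood at 272, 235 and 425 FPKM in WT and 194, 224 and 123 FPKM in KO. The lowest WT and the highest KO library of Apoa1 lay close together, and its difference of -0.78 shrank to -0.28 without the libraries numbered 3. Ank1, Ing2 and Pbx3, which encode an ankyrin, a chromatin reader and a homeobox factor, had non-overlapping values and log2 differences of -1.47, -0.88 and -1.31.

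Genes higher in KO were led in unadjusted p by Itfg3, among those with non-overlapping values and a group mean of at least 5 FPKM. Small nucleolar RNA, predicted and clone-named entries were left aside. Itfg3 stood at 9.29, 9.2 and 6.48 FPKM in WT and 19.8, 21.5 and 16.6 FPKM in KO (log2 difference 1.13, SE 0.33, unadjusted p = 0.00492, limma). Itfg3 also stood higher in KO at 3 months, by 0.93. P2rx4, an ATP-gated ion channel, held 4.57, 4.55 and 4.69 FPKM in WT and 8.72, 9.87 and 10.4 FPKM in KO, with a spread within each genotype far smaller than the gap between them (log2 difference 0.92, SE 0.31). Zfpl1, a Golgi zinc-finger protein, stood at 34.8, 29.5 and 18.7 FPKM in WT and 58.3, 39.4 and 71 FPKM in KO. Its difference was 1.00 with all 6 libraries and 0.57 without those numbered 3. Rhbdd3, Asb6, Gstp2 and Lims2 had non-overlapping values as well, with log2 differences of 1.32, 1.11, 1.96 and 2.33. The last 2 of these were uneven within KO, with Gstp2 at 2.43, 13.9 and 19.7 FPKM and Lims2 at 16.8, 1.3 and 6.68 FPKM. The KO group of Lims2 met the filter on low values by itself. Its WT values all lay below 1.3 FPKM, close to or under that filter, so that the filter itself favoured a difference.

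The medians of the gene lists are shown with all 6 libraries, without both libraries numbered 3, and at 3 months. Among the 29 lists plotted, which leave out the small nucleolar RNA entries, those farthest below 0 were glycolysis (-0.55), immediate-early genes (-0.52), cytosolic heat shock proteins (-0.33) and cell cycle genes (-0.32), and the interferon list was farthest above 0 (0.63). Without the libraries numbered 3 the cholesterol list was the lowest of the 29 (-0.79) and the cell cycle median was -0.04. Of 37 lists, 17 kept the sign of their median in all 11 alternatives run on medians. No list was tested as a set. The lists were chosen with earlier results of these data known, so a share in a list above that of all genes is a description only.

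**Figure D3:**
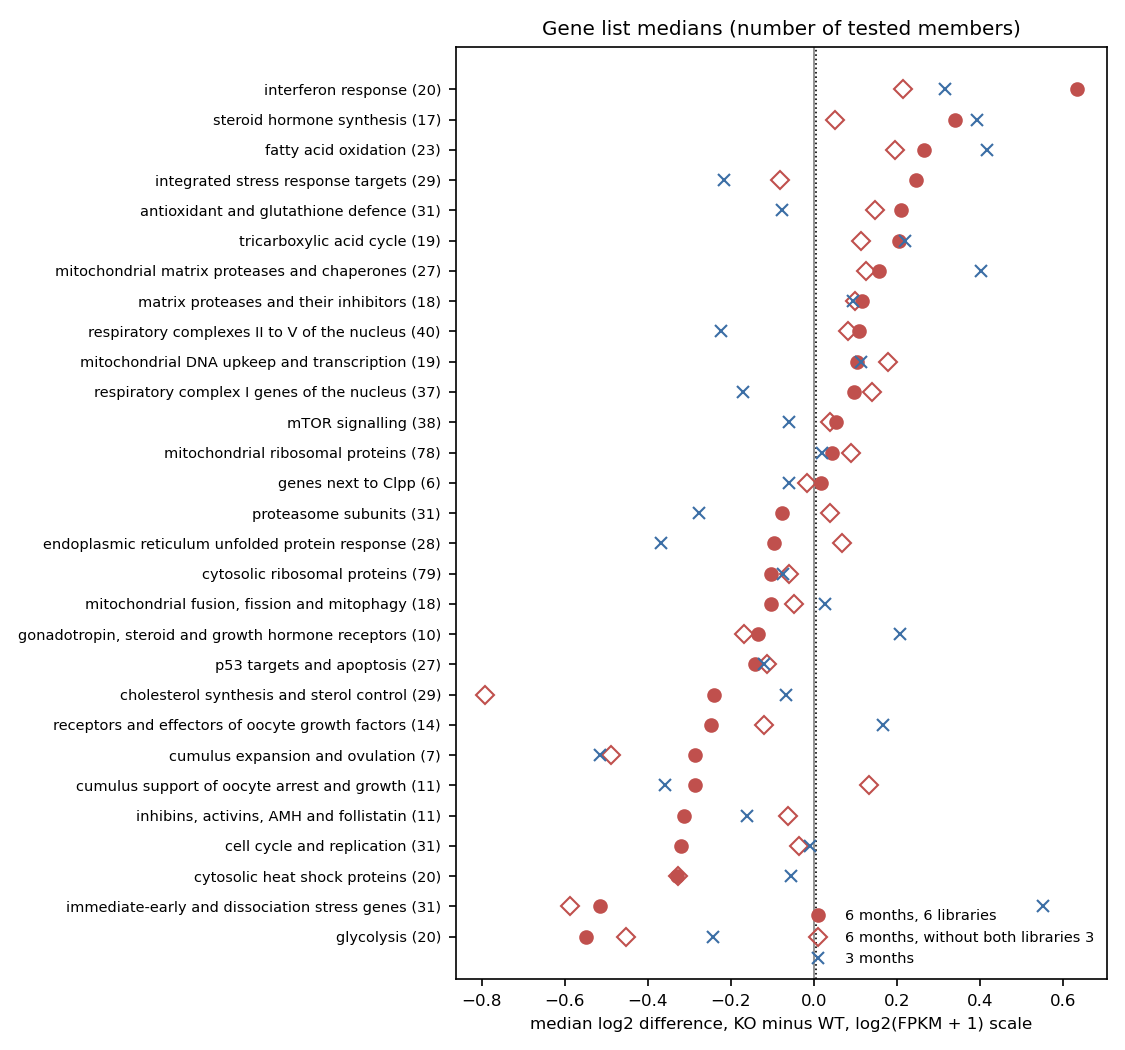
Median log2 difference, KO minus WT, of 29 gene lists (rows, with the number of tested members) for the 6 libraries at 6 months (filled circles), the same without both libraries numbered 3 (diamonds), and at 3 months (crosses), with the median of all genes dotted. Immediate-early genes lie at -0.52 and -0.59 at 6 months and at 0.55 at 3 months, and the cholesterol list moves from -0.24 to -0.79 without the libraries numbered 3.

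The list plotted as mitochondrial matrix proteases and chaperones included no gene other than Clpp that passed. It is not confined to the matrix and also holds proteins of the inner membrane, such as Parl and Afg3l2. Of 27 tested members, 20 lay above 0 and 7 below, with a median of 0.16 (0.07 without WT library 3), and 1 passed the test, Clpp. Clpx, the ATPase partner of ClpP, stood at 19.5, 18.4 and 22 FPKM in WT and 28, 23.1 and 10.8 FPKM in KO, so that KO library 3 was the lowest and the other 2 KO libraries the highest of the 6. Lonp1, another soluble ATP-dependent protease of the matrix, held 25.3, 22.8 and 13.3 FPKM in WT and 21.1, 23.4 and 26.5 FPKM in KO. Clpx and Lonp1 were named for their role, after their values had been seen. The matrix chaperonin Hspd1 (HSP60) stood at 275, 220 and 309 FPKM in WT and 232, 219 and 348 FPKM in KO, a log2 difference of -0.03 (SE 0.24). The co-chaperonin Hspe1 stood at 658, 645 and 1662 FPKM in WT and 557, 590 and 2588 FPKM in KO, high in both libraries numbered 3. At 3 months Hspd1 had stood higher in KO by 0.92, and the difference between the ages was -0.95 (SE 0.34), with an unadjusted p of 0.0158 and an adjusted p of 0.9998 in limma.

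In this list 3 of 27 members had non-overlapping values with KO higher (11.1%, against 3.93% of all genes). Parl, a rhomboid protease of the inner membrane, stood at 64.2, 52.5 and 75.8 FPKM in WT and 104, 94.7 and 157 FPKM in KO (log2 difference 0.86, SE 0.28, and 0.77 without the libraries numbered 3). The matrix chaperone Trap1 stood at 42.1, 32 and 29.3 FPKM in WT and 47.1, 44.6 and 54.1 FPKM in KO (log2 difference 0.50, SE 0.26). Afg3l2, a subunit of the m-AAA protease of the inner membrane, stood at 8.51, 8.93 and 6.41 FPKM in WT and at 11.1, 11 and 11.6 FPKM in KO, and it was named after its values were seen. Mipep, which trims imported precursors, overlapped only through WT library 1, with 11.9, 8.47 and 3.95 FPKM in WT and 11.9, 14.7 and 14 FPKM in KO.

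Nuclear genes of the respiratory chain had medians slightly above 0, and 1 library decided the sign. In complex I, 27 of 37 members lay above 0 (73%, against 50.6% of all genes), with a median of 0.10, and without the libraries numbered 3 it was 35 of 37 with a median of 0.14, against 54.1% of all genes. Leaving out WT library 1 or KO library 3 alone turned the complex I median to the other side of 0, and -0.03 was its lowest value. The largest difference by size in complex I was that of Ndufv1, the NADH-binding subunit, with 109, 69.5 and 54.5 FPKM in WT and 108, 116 and 95.9 FPKM in KO (log2 difference 0.51, SE 0.29). Ndufs7, an iron-sulfur subunit, was the only member with non-overlapping values, at 392, 356 and 369 FPKM in WT and 397, 434 and 434 FPKM in KO. That share, 1 of 37 (2.7%), was below the 3.93% of all genes with KO higher. For complexes II to V, 28 of 40 members lay above 0 with a median of 0.11, which also crossed 0 without WT library 1 or KO library 3 (lowest -0.07). Uqcrc2, a core subunit of complex III, did not overlap, at 149, 129 and 116 FPKM in WT and 159, 163 and 172 FPKM in KO (log2 difference 0.33, SE 0.20). It was the only such member, 1 of 40 (2.5%), again below the share of all genes. At 3 months 31 of 37 complex I genes and 31 of 40 of the other complexes had lain below 0, against 50% of all genes, with medians of -0.17 and -0.22.

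Mitochondrial ribosomal proteins, which translate the mitochondrially encoded subunits, were centred near 0, with 46 of 78 above it and a median of 0.04 (-0.0037 without WT library 2). Mrps34, a small-subunit protein, stood at 81.8, 76.5 and 68.7 FPKM in WT and 94.9, 99.8 and 153 FPKM in KO (log2 difference 0.58, SE 0.26). In the opposite direction Mrps6 stood at 197, 233 and 381 FPKM in WT and 153, 181 and 143 FPKM in KO (log2 difference -0.71, SE 0.31). Enzymes of the tricarboxylic acid cycle lay above 0 in 17 of 19 cases with a median of 0.20 (0.35 without WT library 1, 0.13 without WT library 3), and no member had non-overlapping values. Idh3b, a subunit of isocitrate dehydrogenase, stood at 101, 78.2 and 77.5 FPKM in WT and 94.9, 99.5 and 111 FPKM in KO. In fatty acid oxidation 19 of 23 lay above 0 with a median of 0.27, and 20 of 23 had done so at 3 months, against 49.9% of all genes. The 6-month median was 0.08 without KO library 3, and as a mean of centred log2 values the list stood at -0.07, -0.33 and -0.0020 in WT and -0.11, -0.07 and 0.59 in KO, with KO library 3 alone outside the WT range. Hadhb, a subunit of the trifunctional protein, was highest in KO library 3, with 67.8, 51.1 and 76.3 FPKM in WT and 84.4, 89.8 and 361 FPKM in KO. The mitophagy receptor Bnip3 stood at 374, 492 and 534 FPKM in WT and 172, 473 and 141 FPKM in KO (log2 difference -1.03, SE 0.52).

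Glycolysis and cholesterol synthesis, the pathways by which cumulus cells supply the oocyte, both lay below 0 in nearly every member, and neither was uniform across the KO libraries. Of 20 glycolytic genes 19 lay below 0 (95%, against 49.4% of all genes), and the median was -0.55, or -0.45 without the libraries numbered 3. The median was -0.93 without KO library 2 and -0.13 without KO library 3. Ldha, the enzyme that interconverts pyruvate and lactate, stood at 2275, 1691 and 712 FPKM in WT and 661, 2566 and 203 FPKM in KO. KO library 2 was the highest of all 6, while WT library 3 sat among the low values. Pgk1, phosphoglycerate kinase, had the same shape, with 520, 576 and 336 FPKM in WT and 226, 583 and 158 FPKM in KO. Hk2, a hexokinase that commits glucose to the pathway, was the only member whose values did not overlap, at 7.11, 7.41 and 7.01 FPKM in WT and 3.1, 6.38 and 2.65 FPKM in KO (log2 difference -0.77, SE 0.39). That share, 1 of 20 (5%), was near the 3.01% of all genes with KO lower. The single member above 0 was Ldhb, named after its values were seen, which stood at 1110 FPKM in KO library 3 and at 262 to 458 FPKM in the other 5. As a mean of centred log2 values, the list stood at 0.62, 0.48 and -0.36 in WT and -0.37, 0.58 and -0.95 in KO, so that the genotypes overlapped and WT library 3 and KO libraries 1 and 3 were the low ones.

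In cholesterol synthesis and sterol control 28 of 29 genes lay below 0 (96.6%), with a median of -0.24, and without the libraries numbered 3 it was again 28 of 29, now with a median of -0.79, against 45.9% of all genes below 0. Hmgcs1, which makes the precursor of mevalonate, stood at 64.6, 72.2 and 117 FPKM in WT and 24.8, 31.6 and 242 FPKM in KO. KO libraries 1 and 2 were thus below every WT library and KO library 3 above all of them. Idi1, an isomerase of the isoprenoid branch, had the same order, with 104, 111 and 169 FPKM in WT and 30.9, 57.8 and 329 FPKM in KO. Both genes were named after their values were seen. The list stood at 0.13, 0.14 and 0.26 in WT and at -0.90, -0.37 and 0.74 in KO as a mean of centred log2 values. KO library 3 was also the library with 15960 FPKM of luteal markers, and the part of those cells in the list's level was not tested. Leaving out KO library 1 turned the median to 0.07.

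Stard4 stood apart in all 3 KO libraries. Stard4, whose product carries cholesterol between membranes, stood at 11.9, 12.2 and 13.4 FPKM in WT and 4.4, 6.71 and 5.5 FPKM in KO (log2 difference -1.06, SE 0.43, unadjusted p = 0.0302, limma). Its difference was -1.01 without the libraries numbered 3. Insig1, which retains the sterol sensor in the endoplasmic reticulum, stood at 29, 32.9 and 16.9 FPKM in WT and 17.6, 14.3 and 17.9 FPKM in KO, with WT library 3 among the KO values.

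**Figure D4:**
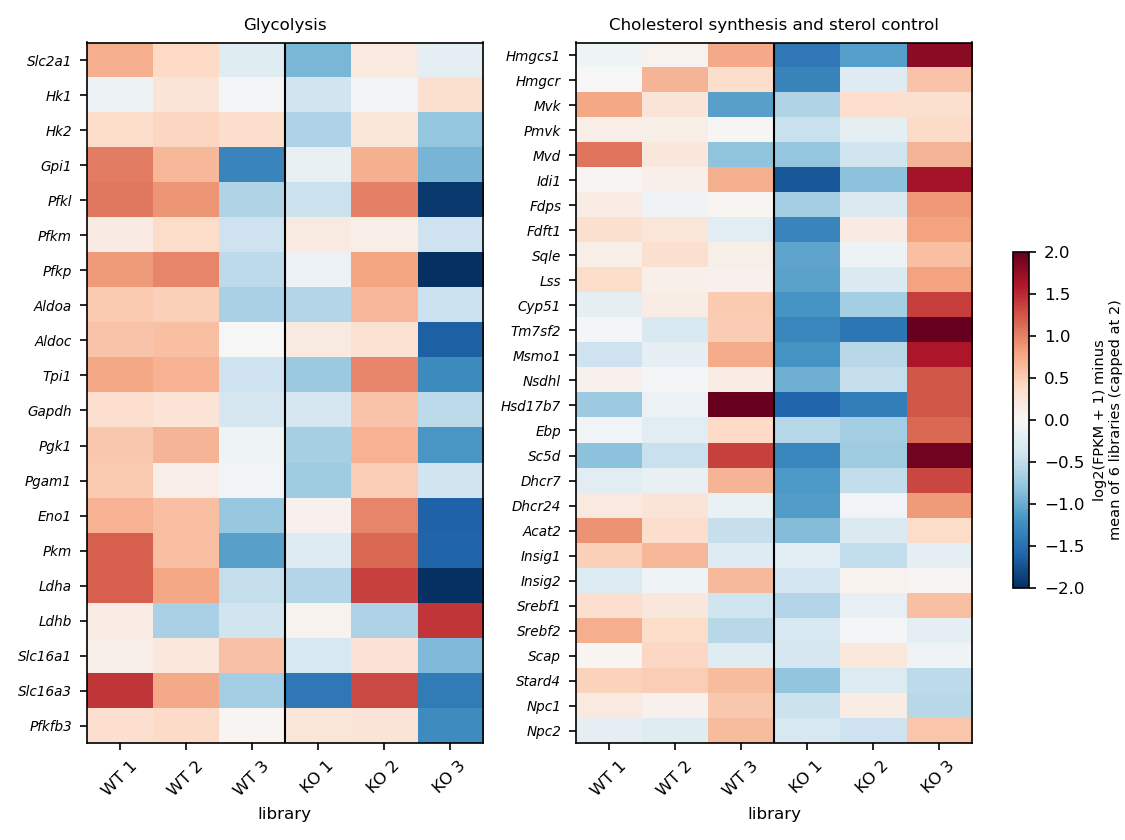
Level of tested members of the glycolysis (left) and cholesterol (right) lists, with 1 cholesterol gene not shown, in the 6 libraries, as log2(FPKM + 1) minus the gene's mean over the 6, coloured from blue (-2 or less) to red (2 or more). Glycolytic genes are low in WT library 3 and KO libraries 1 and 3, and cholesterol genes are low in KO libraries 1 and 2 and high in KO library 3.

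Immediate-early genes, whose transcripts are made within minutes of a stimulus and which also mark stress of handling, were lower in most members. Of 31 tested, 24 lay below 0 (77.4%, against 49.4% of all genes) with a median of -0.52, and 28 did so without the libraries numbered 3, with a median of -0.59. The median was -0.34 without WT library 1. Of the 31, 6 had non-overlapping values with KO lower (19.4%, against 3.01% of all genes) and 0 with KO higher, and 4 had an unadjusted p under 0.05 (Klf4, Klf6, Rhob and Egr2), against 0.455% of all genes in that direction. Egr2 (chromosome 10, 67535475 to 67542188), a zinc-finger factor, stood at 7.74, 6.31 and 10.4 FPKM in WT and 2.38, 5.74 and 1.89 FPKM in KO (log2 difference -1.16, SE 0.51). Rhob (chromosome 12, 8497661 to 8500009), a small GTPase of endosomes, stood at 33.6, 36.8 and 25.1 FPKM in WT and 22, 19.7 and 10.2 FPKM in KO (log2 difference -0.89, SE 0.36). Fos, the most abundant member, was less orderly, with 1182, 914 and 709 FPKM in WT and 324, 1040 and 251 FPKM in KO, where KO library 2 lay within the WT range. Ier2 overlapped broadly, at 390, 168 and 136 FPKM in WT and 132, 298 and 183 FPKM in KO. As a mean of centred log2 values the list stood at 0.69, 0.21 and -0.19 in WT and -0.25, -0.08 and -0.37 in KO, so that WT library 3 lay among the KO libraries.

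Cytosolic heat shock proteins, which fold and refold proteins outside the mitochondria, lay below 0 in 17 of 20 cases (85%) with a median of -0.33 both with and without the libraries numbered 3. Of the 20, 6 had non-overlapping values with KO lower (30%, against 3.01% of all genes), and 1 had an unadjusted p under 0.05. That gene was Hsf2, a heat shock transcription factor, at 5.08, 6.21 and 9.91 FPKM in WT and 4.17, 4.36 and 2.07 FPKM in KO. Hsp90aa1 (chromosome 12, 110690605 to 110702728), the inducible HSP90, stood at 535, 480 and 791 FPKM in WT and 314, 392 and 251 FPKM in KO (log2 difference -0.90, SE 0.42). Dnajb1 (chromosome 8, 83608193 to 83612653), an HSP40 that delivers clients to HSP70, stood at 202, 143 and 293 FPKM in WT and 111, 102 and 59.9 FPKM in KO (log2 difference -1.20, SE 0.60). Its difference was -0.67 without the libraries numbered 3. Hspa8, the constitutive HSP70, was also separated, with 1776, 1477 and 1466 FPKM in WT and 1340, 1324 and 908 FPKM in KO. Hspa4l and Hsph1, both HSP110 relatives, completed the 6, and Hsph1 was named after its values were seen, at 28.2, 26.7 and 33.2 FPKM in WT and 11.4, 19.8 and 11.2 FPKM in KO. The list stood at 0.28, -0.06 and 0.41 in WT and -0.30, -0.22 and -0.11 in KO as a mean of centred log2 values, with every WT library above every KO library.

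**Figure D5:**
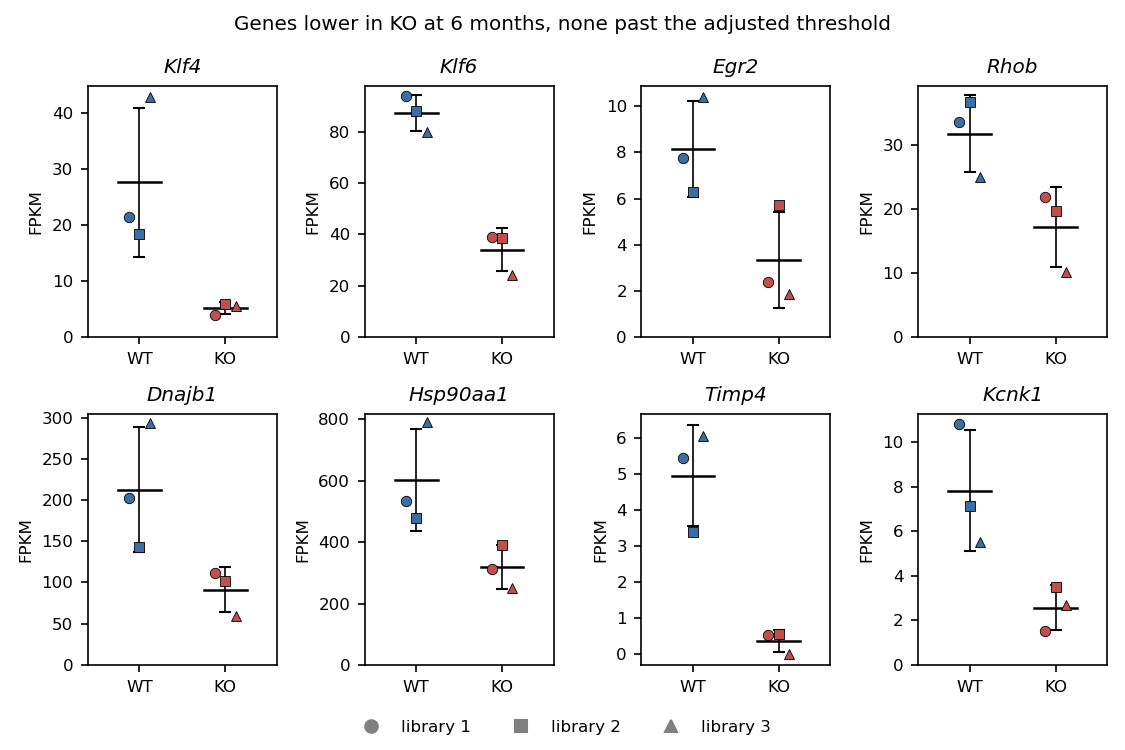
FPKM of 8 genes lower in KO at 6 months in the 6 libraries, with the group mean (bar) and SD (whiskers), n = 3, and circles, squares and triangles for libraries 1, 2 and 3. In each panel every KO value lies below every WT value, and none of the 8 passed the adjusted test.

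Promoter windows of 300 bases, from 250 before to 50 after each RefSeq start on GRCm38.p6, were searched on both strands for 5 patterns known to bind regulators of these lists. The patterns were TGACGTCA (the cAMP response element), TGANTCA (AP-1), TCACNCCAC (sterol regulatory element) and, by name alone, the CArG box of serum response factor and the heat shock element. The first 2 do not contain each other. Of the 10338 genes tested 7856 had a window. The CArG box was present in 3 of 25 immediate-early genes (12%) and in 1.58% of all, and TGACGTCA in 3 of 25 (12%) and in 3.9% of all. The heat shock pattern was present in 3 of 15 heat shock genes (20%) and in 0.624% of all, and the sterol pattern in 1 of 21 cholesterol genes (4.76%) and in 1.41% of all. The AP-1 pattern was present in 1 of 25, 1 of 15 and 2 of 21 members of these lists and in 5.38% of all. A match describes the letters and is no evidence of binding. A window with a match is shown for 1 gene of each list, with the match in capitals: Egr2 (chr10:67537619-67537918, plus strand, CArG box), Hsph1 (chr5:149636266-149636565, minus strand, heat shock pattern, which lies just after the start) and Hmgcs1 (chr13:119690101-119690400, plus strand, sterol pattern).
Egr2: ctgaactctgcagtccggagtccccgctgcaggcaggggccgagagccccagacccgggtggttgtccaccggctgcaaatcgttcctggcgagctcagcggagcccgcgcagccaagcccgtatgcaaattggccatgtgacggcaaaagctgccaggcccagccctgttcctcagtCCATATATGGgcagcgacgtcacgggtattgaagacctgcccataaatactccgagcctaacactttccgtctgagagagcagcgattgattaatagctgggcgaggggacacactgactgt
Hsph1: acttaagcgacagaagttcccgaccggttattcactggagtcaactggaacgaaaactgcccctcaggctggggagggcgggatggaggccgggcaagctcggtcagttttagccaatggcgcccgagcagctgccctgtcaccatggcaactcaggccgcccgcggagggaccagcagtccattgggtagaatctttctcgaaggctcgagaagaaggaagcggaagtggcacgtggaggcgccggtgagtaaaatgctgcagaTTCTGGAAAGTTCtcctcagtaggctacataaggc
Hmgcs1: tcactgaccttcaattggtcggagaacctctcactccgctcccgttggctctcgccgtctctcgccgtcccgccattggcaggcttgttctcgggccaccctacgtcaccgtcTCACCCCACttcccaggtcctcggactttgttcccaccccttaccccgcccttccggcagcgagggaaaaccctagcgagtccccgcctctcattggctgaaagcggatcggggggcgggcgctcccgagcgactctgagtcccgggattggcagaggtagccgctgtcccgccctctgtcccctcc

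Targets of the integrated stress response, the programme that mitochondrial dysfunction is known to engage through ATF4, lay above 0 in 22 of 29 cases (75.9%) with a median of 0.25. Without the libraries numbered 3 the count was 12 of 29 and the median -0.08, and without WT library 3 alone the median was 0.0088. The list stood at 0.16, 0.06 and -0.57 in WT and 0.03, -0.15 and 0.47 in KO as a mean of centred log2 values, so that its extremes were the 2 libraries numbered 3. Cth, an enzyme of cysteine synthesis, had non-overlapping values, at 7.19, 7.31 and 3.7 FPKM in WT and 13.1, 9.37 and 55.6 FPKM in KO. Cebpb, a transcription factor also required for ovulation, stood at 114, 75.3 and 32.1 FPKM in WT and 194, 97.7 and 190 FPKM in KO, and its difference of 1.22 (SE 0.43) was 0.57 without the libraries numbered 3. At 3 months Cebpb had stood lower in KO by 0.78. Nupr1, a stress-induced chromatin protein, spanned 678 to 1325 FPKM in WT and 182 to 1892 FPKM in KO.

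The unfolded protein response of the endoplasmic reticulum had 19 of 28 members below 0 and a median of -0.10, which was 0.07 without the libraries numbered 3. Its chaperone Hspa5 (BiP) stood at 681, 669 and 926 FPKM in WT and 785, 776 and 332 FPKM in KO. Antioxidant genes lay above 0 in 23 of 31 cases with a median of 0.21 (0.15 without the libraries numbered 3, 0.03 without KO library 3 alone). Prdx5, a mitochondrial and peroxisomal peroxiredoxin, stood at 93, 104 and 119 FPKM in WT and 130, 135 and 261 FPKM in KO, with no overlap (log2 difference 0.66, SE 0.31). Its relative of the mitochondrial matrix, Prdx3, stood at 836 FPKM in KO library 3 and at 125 to 254 FPKM in the other 5.

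Interferon-response genes lay above 0 in 17 of 20 cases (85%), with a median of 0.63, or 0.21 without the libraries numbered 3. The list stood at -0.31, -0.57 and -0.11 in WT and -0.18, -0.34 and 1.52 in KO, and the median was 0.10 without KO library 3. Blood and leukocyte markers summed to 1612 FPKM in KO library 3 and to 1795 FPKM in WT library 3, where the interferon list stood at -0.11, and their part in the list was not tested. Ifitm2, an antiviral membrane protein, differed in all 3 KO libraries, with 810, 1045 and 1118 FPKM in WT and 1447, 1864 and 1991 FPKM in KO. Its log2 difference was 0.83 (SE 0.31, unadjusted p = 0.021, limma) and 0.84 without the libraries numbered 3. Irf7, a transcription factor of the response, did not overlap, but at 1.04, 1.3 and 0.852 FPKM in WT and 1.46, 2.88 and 13.5 FPKM in KO it was close to the filter outside KO library 3. Of 30 listed genes 10, Mx1 and Rsad2 among them, did not pass the filter on low values.

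Genes of cumulus expansion were largely silent at this stage, with 7 of 25 past the filter, 3 above and 4 below 0. Cebpb, given above with a difference of 1.22, was among the 3. Has2 and Ptx3, which make and stabilise the hyaluronan matrix, and Ptgs2 were among the 18 that were not tested. Tnfaip6, a crosslinker of hyaluronan, had 2.91, 1.92 and 7.24 FPKM in WT and 1.78, 0.42 and 0 FPKM in KO (log2 difference -1.52, SE 0.67). Adamts1, a protease that cleaves versican, stood at 9.7, 6.85 and 14.7 FPKM in WT and 4.16, 5.57 and 0.94 FPKM in KO (log2 difference -1.44, SE 0.54, and -0.65 without the libraries numbered 3). Its substrate Vcan stood at 24.3, 19.1 and 21.2 FPKM in WT and 7.73, 19.3 and 20.9 FPKM in KO, with only KO library 1 low. The list of matrix proteases and their inhibitors, which holds Adamts1 and Timp4, lay above 0 in 10 of 18 cases with a median of 0.115. Its largest difference by size was that of Serpina5, higher in KO by 2.27 (1.16 to 3.97 over the alternatives). Timp4 (chromosome 6, 115241892 to 115252205), an inhibitor of matrix metalloproteinases, stood at 5.43, 3.37 and 6.04 FPKM in WT and 0.528, 0.534 and 0 FPKM in KO. The log2 difference was -2.13 (SE 0.46, adjusted p = 0.9998, limma), or -1.79 without the libraries numbered 3, and Timp4 passed the filter on low values only through the WT group.

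Hormone signalling and steroid synthesis showed wide spreads. Inha stood at 3711, 2715 and 2419 FPKM in WT and 5653, 4653 and 3480 FPKM in KO (log2 difference 0.64, SE 0.34). Inhba, the activin subunit, spanned 481 to 912 FPKM in WT and 136 to 1122 FPKM in KO. Inhbb had the largest difference by size of the inhibin and activin list, at -1.30 (-2.01 to -0.48 over the alternatives). That list lay below 0 in 7 of 11 cases with a median of -0.31, or -0.06 without the libraries numbered 3, and 0 of the 11 had non-overlapping values. The receptor for follicle-stimulating hormone, Fshr, stood at 96.4, 76.8 and 58.8 FPKM in WT and 80.4, 211 and 30.7 FPKM in KO. Receptors and effectors of oocyte-derived growth factors lay below 0 in 12 of 14 cases with a median of -0.25, and none had non-overlapping values. Without the libraries numbered 3 it was 10 of 14 with a median of -0.12, and the median was -0.08 without KO library 3 and -0.39 without KO library 2. Id1, a target of bone morphogenetic protein signalling, stood at 117, 57.8 and 42.5 FPKM in WT and 9.44, 88.3 and 50.3 FPKM in KO. Npr2, the receptor through which cumulus cells hold the oocyte in meiotic arrest, stood at 37, 47 and 24.6 FPKM in WT and 26.9, 36.5 and 10.6 FPKM in KO. Steroid-synthesis genes had a median of 0.34, which was 0.05 without the libraries numbered 3 and -0.08 without KO library 3 alone. Fdx1, which passes electrons to Cyp11a1, stood at 9153 FPKM in KO library 3 and 1238 FPKM in WT library 3, against 161 to 314 FPKM in the other 4.

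Cell cycle genes lay below 0 in 23 of 31 cases with a median of -0.32, and in 17 of 31 with a median of -0.04 without the libraries numbered 3. Without KO library 3 alone the median was 0.21. Mki67, a proliferation marker, stood at 35.7, 37.9 and 19.2 FPKM in WT and 29.7, 33.8 and 2.67 FPKM in KO, so that KO library 3 alone was outside the WT range. Cytosolic ribosomal proteins had small differences, with 64 of 79 below 0 (81%) and a median of -0.10, and with 70 of 79 below 0 and a median of -0.06 without the libraries numbered 3. The median was 0.02 without WT library 3. Rpl7a had the smallest unadjusted p of the list, at 667, 721 and 707 FPKM in WT and 579, 607 and 562 FPKM in KO (log2 difference -0.26, SE 0.21). Genes of mTOR signalling had a median of 0.05 and proteasome subunits one of -0.08. The proteasome median was on the other side of 0 without WT library 1, without KO library 3 and without both libraries numbered 3 (0.04, with 21 of 31 above 0). Of 14 neighbours of Clpp on chromosome 17, 6 were tested, 3 above and 3 below 0, with a median of 0.02. That median changed sign in 4 of 11 alternatives, and 0 of the 6 genes had non-overlapping values. The largest difference by size was that of Tnfsf9, at -1.63 (-2.89 to -0.75 over the alternatives). Alkbh7, the most abundant of the 6, stood at 54.5, 51.1 and 77.7 FPKM in WT and 58.5, 60.7 and 112 FPKM in KO. The p53 and apoptosis list had a median of -0.14, or -0.04 without KO library 3.

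Whether the effect of ClpP loss at 6 months differed from that at 3 months was tested as an interaction in the same limma model. Of 10338 entries 1 passed (0.00967%), Snora65, whose effect was -5.02 at 6 months and 0.31 at 3 months, a difference of -5.32 (SE 0.59, adjusted p = 0.0119, limma). At 3 months Snora65 stood at 15.2, 24.7 and 23.6 FPKM in WT and 15.9, 22.3 and 48.4 FPKM in KO. Snora65 had passed the filter on low values only through the 6-month WT group, so that a 6-month difference was already required. The call was lost with a pseudocount of 5 (adjusted p = 0.444, limma) and with no filter on low values (0.0817). It was also lost without the 3-month WT library 1 (0.0689), without the 6-month KO library 2 (0.052) and without both 6-month libraries numbered 3 (0.0942). Clpp had nearly the same effect at both ages, -5.25 and -5.03. Unadjusted interaction p-values under 0.05 were reached by 197 genes (1.91%). Immediate-early genes held 7 of these in 31 tested, and their median went from 0.55 at 3 months to -0.52 at 6 months. Rhob had an effect of 0.86 at 3 months and -0.89 at 6 months, and Fos one of 2.68 and -1.06, with unadjusted interaction p-values of 0.00503 and 0.0102 in limma. Kcnk1 was higher in KO by 1.26 at 3 months and lower by 1.31 at 6 months (difference -2.57, SE 0.56, unadjusted p = 0.000619, adjusted p = 0.9998, limma). Across the 10338 genes the 2 sets of effects, which share no library, correlated at r = 0.305, given as a description since genes are not independent replicates.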

How the data were processed

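Transcripts of 100 cumulus cells per mouse were amplified by Smart-Seq2 and sequenced as 75 bp paired-end reads. The authors deposited 1 table of FPKM values per gene for 12 libraries. Per the submitters' processing notes, Cufflinks 1.2.1 and SAMtools 0.1.18 were used with TopHat2 2.0.10 and Bowtie2 2.1.0 on the mouse build GRCm38 (mm10), besides FastQC and cutadapt. Which gene annotation was used is not stated there. FPKM values are not counts, so no count model was used. Libraries were taken by their labels for age and genotype.

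Genes with at least 1 FPKM in at least 3 of the 6 libraries were tested on log2(FPKM + 1), a scale that understates changes of low genes, with limma 3.58.1 (R 4.3.3) on 4 group means over 12 libraries and Benjamini-Hochberg adjustment over all genes tested. The script was tested on simulated data with the spread of each gene capped at the median and no outlying libraries. That run does not show how the fit performs on these data. Tables and figures used Python 3.11.15, numpy 2.4.6, pandas 2.3.3, scipy 1.17.1 and matplotlib 3.10.9. Depth is unknown beyond the relative depth read from the lowest values. Of the table's rows, 27 carried symbols turned into dates and were not named.

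The members and gene lists were chosen with earlier results of these data known. Named genes were Clpp, all that passed, up to 10 per direction with the smallest p among genes with non-overlapping values and a group mean of at least 5 FPKM, and of each list up to 4 with the smallest p and up to 2 with the highest level. Same-numbered WT and KO libraries deviated together (r = 0.138, 0.362 and 0.466 over 10338 genes). However, 3 of 6 libraries correlated best with another number, and both libraries 3 share markers of other cells. The highest correlation was 0.511, between WT library 2 and KO library 1. Whether the numbers pair the mice is not known. The main fit was unpaired, and the numbers entered only as the replicate block of an alternative. Alternatives were other pseudocounts, filters and scalings, a replicate block, robust moderation, the 6 libraries alone and libraries left out. Some genes are not reported here.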

Additional observations from a re-analysis of the deposited data

Results flagged for a closer look

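The test of a difference between the ages in the response to ClpP loss was passed by Snora65 alone, at -5.32 on the log2(FPKM + 1) scale. Snora65 passed the filter on low values only through the 6-month WT group, so that a 6-month difference was already required. It was listed at 0 in all 3 KO libraries at 6 months and was present in all 3 KO libraries at 3 months. The size depends on the pseudocount, since the 6-month KO group is at 0, and over the alternatives its adjusted p ran from 0.000191 to 0.444 (limma).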

How the results depend on the processing

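Between 2 and 3 genes passed at 6 months under every alternative run, and 2 to 3 with 1 library left out. Clpp kept its direction throughout, from -5.83 to -4.81 with 1 library left out, and missed the threshold only in the fit on the 6 libraries alone (-5.25, adjusted p = 0.0547, limma). With the replicate block 2 genes passed, Clpp (adjusted p = 0.0401, limma) and Snora65 (0.00449), Snora15 did not (0.0835), and 1 gene passed the test of the difference between ages. That last count was 0 with a pseudocount of 5, 0 with no filter on low values, 0 without both 6-month libraries numbered 3, and 0 to 3 with 1 library left out. It was 0 without the 3-month WT library 1 or the 6-month KO library 2, 2 without the 3-month KO library 1 or the 6-month KO library 1, and 3 without the 3-month WT library 3, and the cause was not tested. Of 195 named genes 131 kept the sign of their difference in all alternatives. Values of 1 or 2 steps limit what the snoRNA entries can show.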
